A study of Mus musculus with 12 samples.

Results

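The return of SMAD4 to SMAD4-deficient tumor organoids grown in basement membrane extract (BME), a matrix gel that supports growth in 3 dimensions, was examined in 6 of the 12 RNA-Seq libraries of the study. The 6 libraries were chosen by their labels, as all libraries of organoids in BME, and the other 6 came from organoids on tissue culture plastic. Of the 24906 genes listed for BME, 12996 had a mean of at least 0.5 fragments per kilobase of transcript and per fixed number of fragments in the library (FPKM) over the 6 libraries and were tested. The question was which differentiation, metabolism and signaling genes differed when SMAD4 was induced, and which of them also differed in a library labelled mock.

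All organoids carried the genotype Smad4KO;BRAFV600E/+;pINDUCER-SMAD4 by their labels, so the untreated organoids carry the construct as well. They were derived from small intestinal tumors of mice in which Villin-CreERT2, a tamoxifen-dependent Cre recombinase made in gut epithelium, removed floxed Smad4 alleles and switched on mutant BRAF. pINDUCER-SMAD4 is a lentiviral construct that makes SMAD4 when doxycycline (dox) is present. The induced arm held 2 libraries, lines 700 and 889, given 4 µg/mL dox for 48 h. The control arm held 4 libraries: lines 682, 700 and 889 without dox, and line 682 given 4 µg/mL dox under a treatment label that adds the word mock. The title and genotype of that last library read as those of an induced one, a mock plasmid appears in the study's methods, and neither says which this library received. The study counts 4 vehicle and 2 dox libraries in BME. A line number names organoids of 1 origin, so 3 same-line pairs were formed: line 700, line 889, and line 682 as the mock pair. The 2 control libraries of line 682 share a line that has no induced library. Throughout, a change is the difference in log2(FPKM + 1), dox minus untreated, and the changes of lines 700 and 889 and of the mock pair are given in this order where they stand together.

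SMAD4 is the partner that receptor-activated SMAD proteins share. BMP ligands act through SMAD1 and SMAD5, TGFβ ligands through SMAD2 and SMAD3, and both routes need SMAD4 to switch on most of their target genes. In the gut, BMP signaling is strongest away from the crypt base, where it restrains stem cells and goes with maturation of villus cells, and ID genes are its usual readout. The culture medium of the study contained EGF, R-spondin, a WNT enhancer, and noggin, which binds and blocks BMP ligands.

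The libraries were of like depth, at 13.1 to 16.2 reads per FPKM in a transcript of 1 kb, with 16340 to 16805 genes above 0. Correlations between libraries over the tested genes were 0.906 to 0.978, and each library correlated best with the other library of its line. The 10 epithelial markers summed to between 4347 and 5505 FPKM in the control arm and to 8192 and 10110 FPKM in the induced arm, most of it the keratins Krt8, Krt18 and Krt19. Markers of other cells were scarce. Of 10 fibroblast and muscle markers 7 stayed below 1 FPKM in all libraries, and their sum was 1.13 to 4.27 FPKM in the control arm and 1.20 and 7.48 FPKM in the induced arm, with Col1a1 at 4.13 FPKM in the induced library of line 889. Of 10 immune markers 8 stayed below 1 FPKM, including Ptprc and Cd3e, and 1 was at 0 in every library. Their sum was almost all Cd14, at 14.8 to 35.8 FPKM. Of 6 endothelial markers 4 stayed below 1 FPKM, including Pecam1, and their sum was 0.381 to 2.57 FPKM in the control arm and 0.285 and 4.14 FPKM in the induced arm, with Tek at 3.62 FPKM in the induced library of line 889 and 1.54 FPKM in its untreated one. In bulk RNA, fewer cells of a type and less RNA per cell cannot be told apart.

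Smad4 was examined first as the check of the labels. Smad4 (chromosome 18, 73798663 to 73863434, NCBIM37) stood at 6.53 FPKM in untreated line 700 and at 17.2 FPKM in its induced library. In line 889 it stood at 6.23 FPKM untreated and 27.3 FPKM induced. In line 682 the untreated library held 8.88 FPKM and the mock library 10.3 FPKM. Both induced libraries lay above all control libraries, and the mock library was the highest of the controls. Smad4 averaged 22.3 ± 7.09 FPKM (SD, n = 2) in the induced libraries and 7.98 ± 1.93 FPKM (SD, n = 4) in the controls, a change of 1.36 ± 0.27 (SE). The two-sided exact permutation test over the 6 libraries gave p = 0.133, the smallest that 2 against 4 libraries allow, and the adjusted p of limma over all tested genes was 0.959. Whether the construct holds mouse or human coding sequence is not given in the sources used here, so its reads count only as far as they were assigned to mouse Smad4, and the level in untreated organoids holds any transcript left by the recombined allele.

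Id1 and Id3, of the BMP readout, were higher in both induced pairs than in the mock pair. Id1 and Id3 encode proteins that hold back basic helix-loop-helix transcription factors, and both are direct BMP targets in many cells. Id3 (chromosome 4, 135699412 to 135701670, NCBIM37) stood at 0, 0.741 and 1.94 FPKM in untreated lines 682, 700 and 889, at 0.333 FPKM in the mock library, and at 30.8 and 22.7 FPKM in the induced libraries of lines 700 and 889. The induced libraries lay far above every control, and the mock library lay within the range of the untreated ones. Its pair changes were 4.19 and 3.01 against 0.41 in the mock pair, and the fitted change was 4.09 ± 0.43 (SE; limma adjusted p = 0.157). Id1 (chromosome 2, 152561987 to 152563146) stood at 8.94, 12 and 13.4 FPKM in untreated lines 682, 700 and 889, at 6.24 FPKM in the mock library, and at 104 and 47.8 FPKM in the induced libraries. That is 8.69-fold higher in line 700 and 3.56-fold higher in line 889, while the mock library was the lowest of the 6. The fitted change of Id1 was 2.73 ± 0.40 (SE; limma adjusted p = 0.595). The exact permutation p was 0.133 for both genes. The induced pair changes minus the mock pair change were 2.85 for Id1 and 3.19 for Id3, neither of which passed (limma adjusted p = 0.988 for both).

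**Figure D1:**
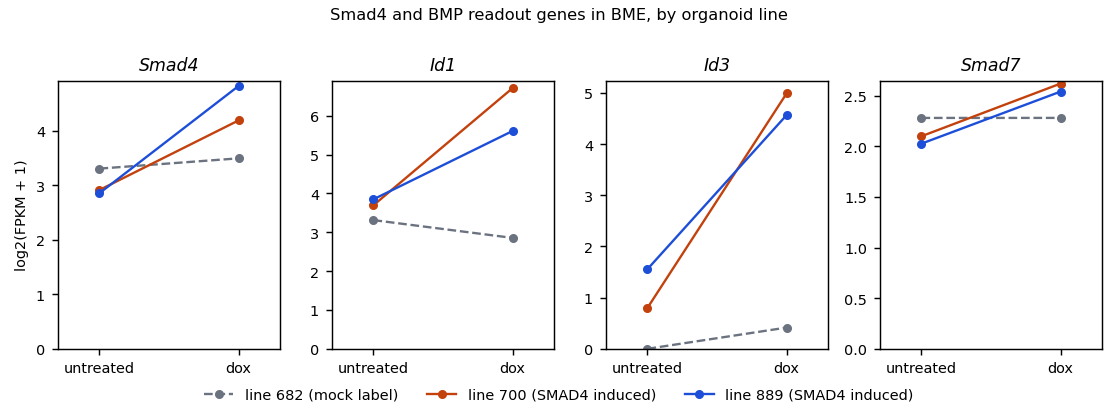
Level of Smad4, Id1, Id3 and Smad7, as log2(FPKM + 1), without and with dox in each organoid line. Each point is 1 library and each line joins the libraries of 1 organoid line, dashed for line 682, whose dox library carries the mock label. The induced libraries of lines 700 and 889 end above all other points in each panel, and Smad7 is level in the mock pair.

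Of the 18 genes listed as BMP readout 8 passed the filter, and none was called by limma, while 3 were higher at an unadjusted p under 0.05 (2.62% of all tested genes). Both induced libraries lay above all 4 controls for 3 of the 8, Id1, Id3 and Smad7, against 6.33% of all tested genes, and none of the 8 lay below. In both induced pairs 5 of the 8 were higher, against 27.2% of all tested genes. Of the 5, Id1 and Id2 were lower and Smad7 was level in the mock pair. Smad7, an inhibitor of the pathway that it is induced by, stood at 3.86, 3.29 and 3.07 FPKM in untreated lines 682, 700 and 889, at 3.86 FPKM in the mock library, and at 5.15 and 4.82 FPKM in the induced libraries. Its changes were 0.52 and 0.51 in the induced pairs and 0.00 in the mock pair. Id2, chosen after its values were seen, was higher by 0.88 and 0.70 in the induced pairs and lower by 0.23 in the mock pair, and its arms overlapped, since it stood at 70.6 FPKM in untreated line 700 and at 51.0 FPKM in the induced library of line 889. The list's medians were 0.56, 0.61 and -0.10, where the median over all tested genes was between -0.01 and 0.00 in each pair.

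The 250 bases before the RefSeq start of 4 genes (GRCm38.p6) are printed as examples of genes with large changes in both induced pairs. Id3 and Antxr2 had changes of 0.41 and 0.64 in the mock pair, and Pla2g10 and Ldhd had mock pair changes of 2.05 and 1.84. Capitals mark the letters CAGAC, the SMAD-binding element, and GGCGCC, a GC-rich SMAD motif, on either strand. Id3 is from chr4:136143572-136143821, plus strand, Antxr2 from chr5:98031018-98031267, minus strand, Pla2g10 from chr16:13730485-13730734, minus strand, and Ldhd from chr8:111630337-111630586, minus strand.
Id3: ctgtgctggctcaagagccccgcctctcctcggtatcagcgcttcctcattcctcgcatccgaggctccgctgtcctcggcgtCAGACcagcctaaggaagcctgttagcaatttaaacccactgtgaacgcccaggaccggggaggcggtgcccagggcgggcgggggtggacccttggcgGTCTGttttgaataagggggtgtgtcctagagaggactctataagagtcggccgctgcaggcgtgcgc
Antxr2: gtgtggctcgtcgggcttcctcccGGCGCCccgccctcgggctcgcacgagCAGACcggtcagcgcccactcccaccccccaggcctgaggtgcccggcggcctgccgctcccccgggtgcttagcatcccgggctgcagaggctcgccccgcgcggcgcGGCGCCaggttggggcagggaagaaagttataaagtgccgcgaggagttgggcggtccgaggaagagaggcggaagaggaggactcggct
Pla2g10: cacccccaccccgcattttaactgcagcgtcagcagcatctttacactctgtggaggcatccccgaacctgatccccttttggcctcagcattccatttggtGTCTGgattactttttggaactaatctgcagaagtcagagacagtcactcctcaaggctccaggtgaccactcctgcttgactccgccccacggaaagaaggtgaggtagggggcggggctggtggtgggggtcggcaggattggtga
Ldhd: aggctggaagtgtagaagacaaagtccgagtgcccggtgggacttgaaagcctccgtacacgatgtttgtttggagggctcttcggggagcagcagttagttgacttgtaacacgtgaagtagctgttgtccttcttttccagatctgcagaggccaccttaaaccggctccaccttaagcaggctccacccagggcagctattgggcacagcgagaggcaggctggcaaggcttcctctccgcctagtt
CAGAC was found 2 times in the Id3 window and 1 time each in those of Antxr2 and Pla2g10. GGCGCC was found 2 times in that of Antxr2, and neither motif was found in that of Ldhd. Of genes not printed, the 2 windows of Tnnt2 held neither motif, and those of Duoxa2 and Edn1, which were lower in both induced pairs, held CAGAC 2 times each. Among 32851 RefSeq promoter windows of the same length, 42.2% held CAGAC or its reverse GTCTG and 9.59% held GGCGCC, so a match is a description of these letters and not a binding site.

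Across all tested genes limma called 3 genes (0.0231% of 12996) at an adjusted p under 0.05 and a change over 1, and 124 (0.954%) passed the same change with an unadjusted p under 0.05. The 3 were the microRNA features Mir466k and Mir6345 and the histone gene Hist2h3c1, with changes of 2.62, 2.44 and 2.42 and the same adjusted p of 0.0384. Each was at 0 in all 4 control libraries and at 3.96 to 5.70 FPKM in the induced ones, and the call of all 3 was lost with the organoid line as a block (0 genes called, 157 at an unadjusted p under 0.05 and a change over 1, lowest adjusted p = 0.139). The count was 37 without the induced library of line 700, where the lone induced library is assumed to vary like the others, and 0 without any other single library. Histone genes of this kind share reads with near-identical copies, and the microRNA features are short, so these 3 levels are uncertain. Mir466k and Mir6345 were listed at 0 in every plastic library, so no change can be given there, while Hist2h3c1 was higher by 2.02, 3.62 and 4.38 there.

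Genes were also described by whether the arms overlapped and by their pairs. Both induced libraries lay above all controls for 823 genes (6.33%) and below all controls for 758 (5.83%), so that 52.1% of them were higher, against 47.2% (697 higher and 779 lower) with quantile normalization. The total of 1581 was larger with any library left out, at 1773 to 6506, the most without the induced library of line 889. Changes over 1 in both induced pairs were found in 68 genes that were higher (0.523%) and 44 that were lower (0.339%), of which 15 and 20 were microRNA or small nucleolar RNA features. Of the 68 higher genes, 37 (54.4%) were also higher by over 1 in the mock pair, a size that 1.29% of all tested genes reached there. A further 16 were higher by 0.5 to 1 in the mock pair, 13 stayed within 0.5 of 0, and 2 were lower by over 0.5. Of the 44 lower genes, 21 (47.7%) were also lower by over 1 in the mock pair, against 1.18% of all tested genes. Another 6 were lower by 0.5 to 1, 9 stayed within 0.5 and 8 were higher by over 0.5. The changes of the line 700 and mock pairs, which share no library, had a Pearson correlation across genes of 0.336, against 0.223 between lines 700 and 889 and 0.168 between line 889 and the mock pair. These correlations are descriptions over 12996 genes, which are not independent replicates.

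When the mock library was counted by its dox label and the 3 pairs were tested with the line as a block, a comparison added after the values were seen, limma called 0 genes. The lowest adjusted p was 0.0949, shared by Angptl4 and Lgr5 among others, and 159 genes (1.22%) passed an unadjusted p under 0.05 with a change over 1, of which 98 were higher and 61 lower. The induced pair changes minus the mock pair change also gave 0 calls, with a lowest adjusted p of 0.873 and 182 genes at an unadjusted p under 0.05 and a difference over 1.

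**Figure D2:**
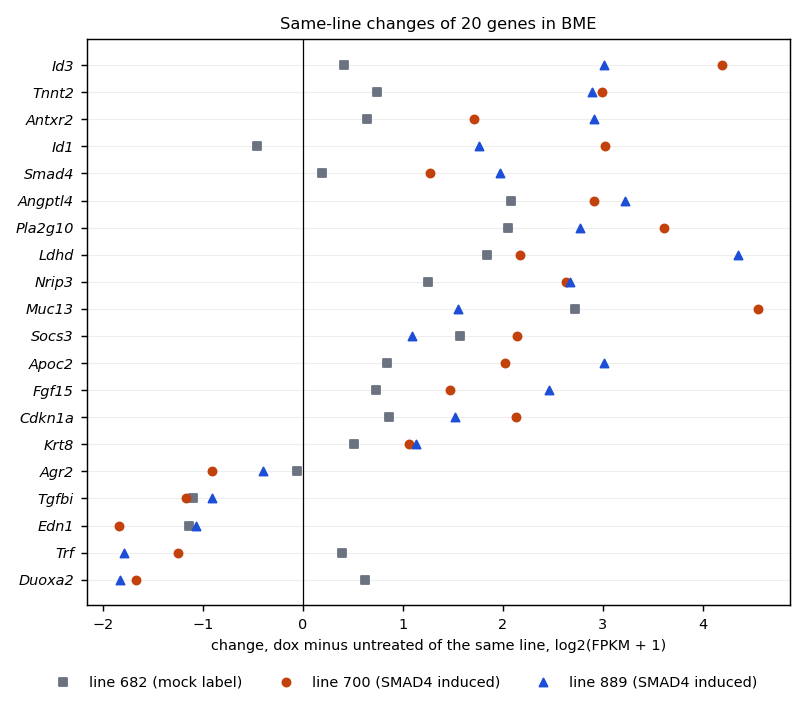
Change of 20 genes in each same-line pair, as dox minus untreated on the log2(FPKM + 1) scale, with circles for line 700, triangles for line 889 and squares for the mock pair of line 682. Squares lie within 0.5 of 0 for Id1, Id3, Smad4 and Trf. They lie on the side of the induced pairs for Angptl4, Pla2g10, Ldhd, Muc13, Socs3 and Edn1, and on the opposite side for Id1, Trf and Duoxa2.

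Named genes with changes over 1 in both induced pairs were described in 2 groups by their mock pair, a division by size that the induced-minus-mock test did not call for any gene. In the first group the mock pair change was under 1 or opposite. Tnnt2, which encodes the cardiac form of troponin T, stood at 2.08, 3.73 and 1.16 FPKM in untreated lines 682, 700 and 889, at 4.16 FPKM in the mock library, and at 36.6 and 15 FPKM in the induced libraries. The induced libraries stood clear of all controls, of which the mock library was the highest. Its pair changes were 2.99, 2.89 and 0.74 (limma adjusted p = 0.959). Antxr2, a cell surface receptor for anthrax toxin that binds matrix proteins, stood at 7.62, 12.7 and 11.4 FPKM in the untreated libraries, at 12.4 FPKM in the mock library and at 43.9 and 92.0 FPKM in the induced ones. The mock level of Antxr2 lay among the untreated levels, and its pair changes were 1.71, 2.91 and 0.64. Azgp1, a secreted glycoprotein linked to fat breakdown, had changes of 1.13, 1.39 and 0.15. Antxr2 and Azgp1 were chosen after their values were seen.

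On the lower side, Duoxa2, the maturation factor of the hydrogen peroxide-making enzyme DUOX2, stood at 4.52, 8.23 and 14.1 FPKM in untreated lines 682, 700 and 889, at 7.49 FPKM in the mock library, and at 1.89 and 3.23 FPKM in the induced libraries. Both induced libraries lay below all controls, and the mock library lay above its own untreated library. Trf, the iron carrier transferrin, stood at 98, 122 and 74.8 FPKM untreated, at 129 FPKM in the mock library and at 50.4 and 21.0 FPKM induced. Duoxa2 was 4.35-fold lower in each induced pair, and Trf was 2.41-fold and 3.57-fold lower. Their fitted changes were -1.36 ± 0.40 and -1.64 ± 0.38 (SE), each with a limma adjusted p of 0.959. The remaining 8 of the 10 lowest genes were short features (Mir1938, Mir1956, Mir7036, Mir677, Mir140, Mir378b, Mir3061 and Snord57), at 0 FPKM in 1 or both induced libraries and at no more than 16.6 FPKM in any library. Mir1938 had a change of -3.54 ± 0.30 (SE; limma adjusted p = 0.0516). Among the 10 highest genes, Mir378a was likewise at 0 in the 3 untreated libraries and at 2.24 FPKM in the mock library, against 4.64 and 3.33 FPKM induced.

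In the second group the change was over 1 in the same direction in all 3 pairs, as for 37 genes (0.285%) that were higher and 21 (0.162%) that were lower. Angptl4, a secreted inhibitor of lipoprotein lipase and a well-known target of the PPAR nuclear receptors, stood at 5.06, 5.80 and 4.42 FPKM in untreated lines 682, 700 and 889. It stood at 24.6 FPKM in the mock library and at 50.3 and 49.6 FPKM in the induced libraries. The untreated libraries lay close together, the mock library stood apart from them, and the induced libraries were higher still. Its changes were 2.92, 3.22 and 2.08, with an adjusted p of 0.959 for the induced against the control arm and of 0.0949 over the 3 pairs, both by limma. Pla2g10, a secreted phospholipase A2, was at or below 0.735 FPKM in the untreated libraries, at 4.55 FPKM in the mock library and at 15.4 and 10.9 FPKM in the induced ones. Nrip3 followed the same order, with 0.188 to 0.674 FPKM untreated, 2.43 FPKM mock and 9.39 and 6.56 FPKM induced.

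Among genes chosen after their values were seen, Muc13, a membrane mucin of the gut surface, had changes of 4.56, 1.55 and 2.72. Gstm5, a glutathione transferase, was 11.6-fold, 9.45-fold and 5.12-fold higher in the line 700, line 889 and mock pairs. Socs3, a feedback inhibitor of cytokine signaling, was 5.11-fold, 2.23-fold and 3.55-fold higher. Wnt4, a WNT ligand, stood between 0.124 and 0.295 FPKM in the untreated libraries, at 7.02 FPKM in the mock library and at 5.57 and 10.6 FPKM in the induced ones. For Wnt4 and Gstm5 the mock library lay among the induced libraries, so the arms overlapped. Cdkn1a, the cell cycle inhibitor p21, was under this size in the mock pair. Cdkn1a was 4.41-fold and 2.90-fold higher in the induced pairs and 1.82-fold higher in the mock pair, and Cdkn2d, another inhibitor of this kind, had changes of 1.47, 1.26 and 1.21.

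Of 13 goblet cell genes tested, 11 were lower in all 3 pairs. Goblet cells make the mucus layer, and Muc2 is its main gel-forming mucin. Muc2 stood at 8.13 FPKM in untreated line 682 and 0.408 FPKM in the mock library, at 4.60 and 0.913 FPKM in line 700, and at 49.2 and 8.65 FPKM in line 889. Each dox library was lower than its untreated partner, and the arms overlapped because line 889 started high and the mock library ended lowest. The trefoil peptide Tff3 was 11.5-fold lower in line 700, 2.79-fold lower in line 889 and 52.1-fold lower in the mock pair, where it stood at 1114 FPKM without dox and at 21.4 FPKM in the mock library. In both induced pairs 12 of the 13 were lower, against 29.5% of all tested genes, and the 11 lower in all 3 pairs compare with 18.4% of all tested genes. In 6 of them the value was lower by over 1 in each pair, which 0.162% of all tested genes reached: Muc2, Tff3, Spink4, Fcgbp, Clca1 and Guca2a. The list's medians were -1.32, -1.23 and -2.70.

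None of the goblet genes was called by limma in any of these comparisons, and 2 were lower in the induced arm at an unadjusted p under 0.05 (1.47% of all tested genes). Over the 3 pairs with the line as a block, the adjusted p was 0.107 for Muc2 and 0.242 for Tff3. Atoh1, the transcription factor that commits cells to secretory fates, was lower by 1.0, 1.23 and 1.72. Spdef, which acts later in goblet maturation, was lower by 1.56 in line 700 but had changes of 0.01 and -0.23 in the other pairs. Agr2, an endoplasmic reticulum protein that mucin folding needs, was the only gene of the 13 whose arms did not overlap, where 5.83% of all tested genes lay below all controls. It stood at 871 to 992 FPKM in the untreated libraries, 913 FPKM in the mock library and 529 and 660 FPKM in the induced ones, so that its changes were -0.91, -0.40 and -0.06. Atoh1 and Spdef were chosen after their values were seen, like Spink4, Clca1 and Guca2a.

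**Figure D3:**
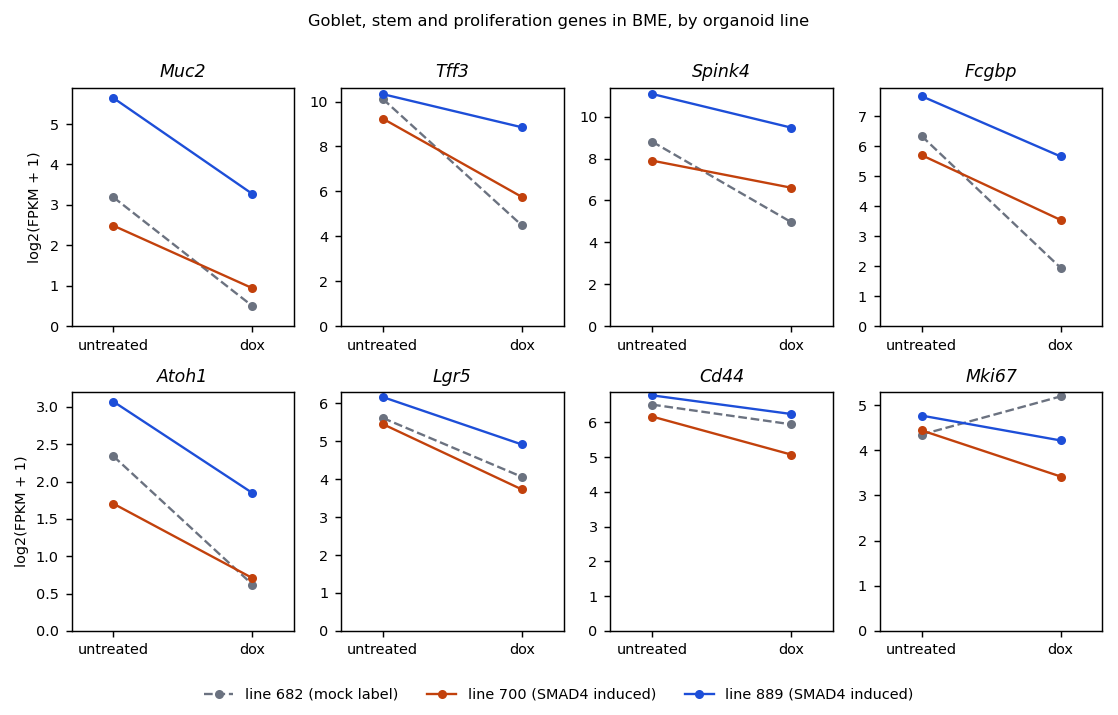
Level of 4 goblet genes (Muc2, Tff3, Spink4, Fcgbp), the secretory factor Atoh1, the stem cell genes Lgr5 and Cd44, and Mki67, as log2(FPKM + 1), without and with dox in each organoid line. Points are libraries and the dashed line is the mock pair. The goblet genes, Atoh1, Lgr5 and Cd44 slope down in all 3 pairs, and Mki67 slopes down in the induced pairs only. Cd44 was chosen after its values were seen.

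Tuft and enteroendocrine genes were mostly too low to test. Of 14 tuft cell genes 6 were tested, and 4 were lower in all 3 pairs, against 18.4% of all tested genes. The list medians were -0.66, -0.35 and -0.91. Pou2f3, the transcription factor that tuft cells need, stood at 7.18 and 1.31 FPKM in the untreated and mock libraries of line 682, at 4.22 and 1.23 FPKM in line 700, and at 1.15 and 0.256 FPKM in line 889. Of 20 enteroendocrine genes only 4 were tested, and 2 of the 4 were lower in all 3 pairs. Of these, Reg4, which goblet cells also make, was lower by 1.60, 1.71 and 3.54. Neurog3, the factor that starts the enteroendocrine program, was lower by 0.89, 0.99 and 1.5. Paneth cell genes had no shared direction. Of 10 tested, 2 were higher and 2 lower in both induced pairs, against 27.2% and 29.5% of all tested genes. Mmp7 was lower by 3.11, 1.64 and 2.40, while the lectin Itln1 was higher by 1.17 and 1.66 in the induced pairs and differed by -0.06 in the mock pair. Lyz1, the Paneth lysozyme, reached 78.6 and 28.8 FPKM in the untreated and induced libraries of line 889 and stayed below 0.4 FPKM in the other lines. Pou2f3, Reg4, Neurog3, Mmp7 and Itln1 were chosen after their values were seen.

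Stem cell genes were on the lower side in line 700 and mixed in line 889. Lgr5, the receptor that marks crypt base stem cells, stood at 48.1, 43.0 and 71.1 FPKM in untreated lines 682, 700 and 889, at 15.7 FPKM in the mock library and at 12.3 and 29.2 FPKM in the induced ones. Every dox library lay below every untreated library, so the mock library sat with the induced ones, and the changes were -1.73, -1.25 and -1.55 (limma adjusted p = 0.0949 over the 3 pairs). Of 17 stem cell genes tested 11 were lower in both induced pairs, 7 were lower in all 3, and none was higher in both. Over all tested genes these shares were 29.5%, 18.4% and 27.2%. The induced libraries lay below all controls for 4 of the 17, Ephb3, Igfbp4, Lrig1 and Znrf3, against 5.83% of all tested genes. Of these, Lrig1, a brake on EGF receptor signaling, was lower by 0.34 in each induced pair and higher by 0.28 in the mock pair. Ephb3 had changes of -0.77, -0.03 and -0.18. The medians of the list were -0.52, -0.17 and -0.18. For reference, the 23 cell cycle genes had medians of -1.02, 0.00 and -0.11, and Mki67 differed by -1.02, -0.55 and 0.85.

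Absorptive enterocyte genes were mixed. Of 30 listed genes 19 were tested, and 9 were higher and 4 lower in both induced pairs (27.2% and 29.5% of all tested genes). The medians were 0.39, -0.04 and 0.00. The arms did not overlap for 2 of them, against 12.2% of all tested genes, and both were higher: Alpi, the brush border alkaline phosphatase, with changes of 1.73, 0.36 and -0.44, and Cdhr2, a cadherin that links microvilli, with changes of 0.77, 0.66 and 0.20. Single genes differed by line. Prap1 was higher by 3.87 in line 700 and differed by -0.04 in line 889, where it was already at 952 FPKM. Sis, the sucrase of the brush border, reached 12.4 and 50.7 FPKM in the untreated and induced libraries of line 889 and stayed below 0.6 FPKM in the other lines. Prap1 and Sis were chosen after their values were seen. Of the keratins, Krt8 stood at 929 to 1286 FPKM untreated, 1322 FPKM in the mock library, and 2206 and 2811 FPKM induced, with changes of 1.06, 1.13 and 0.51, and Krt18 and Krt19 did not overlap between the arms either. Krt20, a keratin of mature surface cells chosen after its values were seen, had changes of 1.28, -0.10 and -0.22, and its arms overlapped. The small proline-rich gene Sprr2a2, part of the cornified envelope of squamous cells, was higher by 1.07, 2.80 and 1.96, and it has near-identical neighbours that can share its reads.

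In the list of fatty acid oxidation and PPAR targets, more genes were higher than lower in both induced pairs. Of 28 genes of fatty acid oxidation and PPAR targets tested, 16 were higher in both induced pairs (27.2% of all tested genes) and none was lower in both. Of these, 13 were also higher in the mock pair. Over all tested genes, 2290 of the 3540 higher in both induced pairs were also higher there. The induced libraries lay above all controls for 6, against 6.33% of all tested genes, including Angptl4, Pparg, Ppard and Plin2. Pparg, a nuclear receptor that fatty acids activate, stood at 17.7, 32.4 and 30.1 FPKM in untreated lines 682, 700 and 889, at 25.9 FPKM in the mock library, and at 59.6 and 38.4 FPKM in the induced libraries, which is 0.86, 0.34 and 0.52 higher within the pairs. Plin2, which coats lipid droplets, had changes of 0.17, 0.88 and -0.08. The list's medians were 0.28, 0.06 and 0.10, while the median fitted change of the induced against the control arm was -0.003.

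Of 15 genes of lipoprotein handling tested, 7 were higher (27.2% of all tested genes) and none lower in both induced pairs. Of the 7, 6 were also higher in the mock pair, against 2290 of 3540 over all tested genes. Apoc2, the apolipoprotein that activates lipoprotein lipase, stood at 5.87, 26.4 and 6.39 FPKM in untreated lines 682, 700 and 889, at 11.3 FPKM in the mock library, and at 110 and 58.4 FPKM in the induced libraries. Its induced libraries lay above every control, by 4.18-fold and 9.14-fold within their lines, and the mock library was 1.93-fold above its partner. The fitted change was 2.83 ± 0.60 (SE; limma adjusted p = 0.959). Dgat2, which makes triglyceride, was higher by 0.79, 0.47 and 0.49. Apoa1 had changes of 0.36, -1.09 and -1.0.

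Among the glycolysis and lactate genes, Ldhd had the largest change in each of the 3 pairs. Ldhd, the mitochondrial dehydrogenase of D-lactate, stood at 12.7, 27.6 and 16.7 FPKM in untreated lines 682, 700 and 889, at 48.3 FPKM in the mock library, and at 128 and 361 FPKM in the induced libraries. All dox libraries lay above all untreated ones, in the order mock, line 700, line 889, and the changes were 2.17, 4.35 and 1.84. The whole list of 22 tested genes had medians of 0.25, -0.24 and -0.05. In both induced pairs 2 of its genes were higher and 4 lower, against 27.2% and 29.5% of all tested genes. The glucose transporter Slc2a1 was higher by 0.40 and 0.39 in line 700 and the mock pair and lower by 0.19 in line 889.

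**Figure D4:**
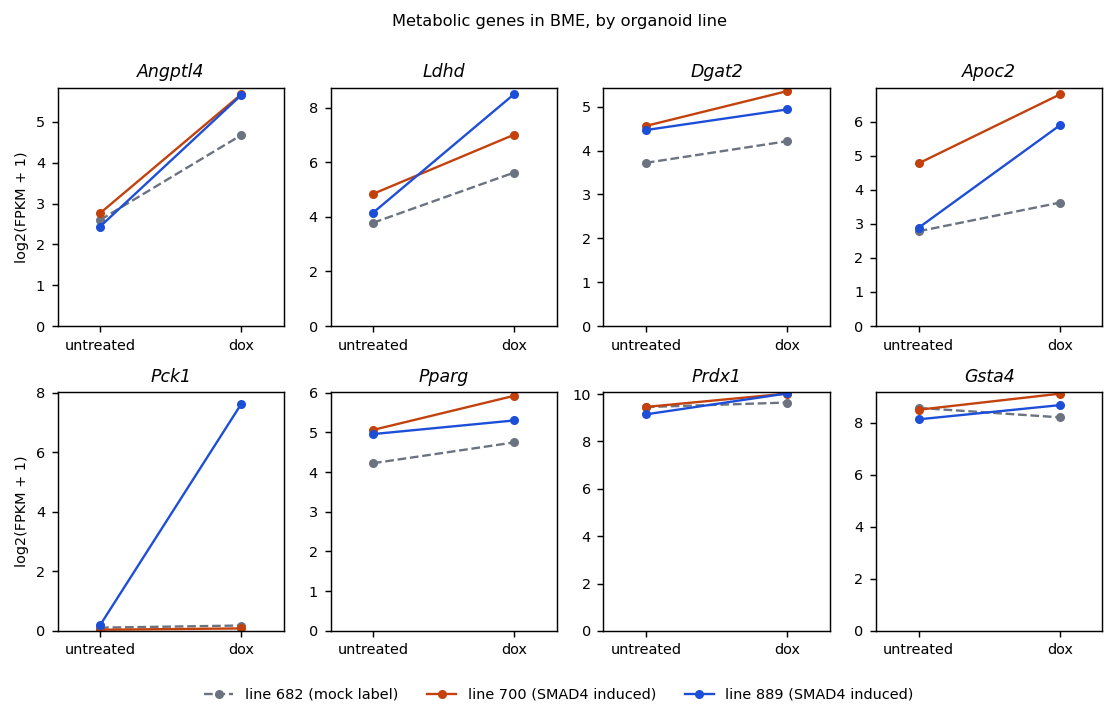
Level of 8 metabolic genes, as log2(FPKM + 1), without and with dox in each organoid line. Points are libraries and the dashed line is the mock pair. Angptl4, Ldhd, Dgat2 and Apoc2 slope up in all 3 pairs, Pck1 is above 1 FPKM only in the induced library of line 889, and Prdx1 and Gsta4 end highest in the induced libraries.

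Respiratory chain genes had small differences. Of 53 nuclear genes of oxidative phosphorylation tested, 32 were higher and 1 lower in both induced pairs. Over all tested genes the shares were 27.2% and 29.5%. By pair, 50 of the 53 were higher in line 700 and 34 in line 889, while 48 were lower in the mock pair. The induced libraries lay above all controls for 8 and below for none, against 6.33% and 5.83% of all tested genes. The sizes were small. The list's medians were 0.19, 0.06 and -0.15, no member passed an unadjusted p under 0.05, and the highest change was 0.65 in line 700 and 0.33 in line 889. Cox6b1, a subunit of cytochrome c oxidase, stood at 796, 725 and 689 FPKM in untreated lines 682, 700 and 889, at 693 FPKM in the mock library, and at 902 and 800 FPKM in the induced libraries. The TCA cycle list had no such direction, with 4 of 22 genes higher and 6 lower in both induced pairs.

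Among 26 antioxidant and glutathione genes 9 were higher and 7 lower in both induced pairs, against 27.2% and 29.5% of all tested genes. Prdx1, a peroxiredoxin that removes hydrogen peroxide, stood at 566 to 703 FPKM untreated, at 800 FPKM in the mock library and at 1041 and 1045 FPKM in the induced libraries. Gsta4, a glutathione transferase for lipid aldehydes, had changes of 0.62, 0.55 and -0.36, and the mock library was lower than its untreated partner. Gpx4, the peroxidase of membrane lipids, chosen after its values were seen, was higher by 0.76, 0.52 and 0.24. Of 25 sterol synthesis genes 2 were higher and 3 lower in both induced pairs, and of 24 genes of the integrated stress response 7 were higher and 8 lower.

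In the TGFβ readout the members went different ways. Of 23 genes tested 8 were higher and 7 lower in both induced pairs, against 27.2% and 29.5% of all tested genes. The list's medians were 0.00, 0.06 and 0.05. The arms did not overlap for Pmepa1 and Tgfb1, which were higher, and Tgfbi, which was lower. This is a share of 13.0% against 12.2% of all tested genes. Pmepa1, a feedback inhibitor of TGFβ signaling, stood at 37.6 and 39.6 FPKM in line 700, at 20.1 and 52.3 FPKM in line 889, and at 21.4 and 22.9 FPKM in line 682, so that its change of 1.34 in line 889 stood beside 0.07 and 0.09 in the other pairs. Tgfb1, a ligand, was higher by 0.17, 0.98 and 0.37. Tgfbi, a matrix protein named for its induction by TGFβ, stood at 8.10, 4.94 and 2.26 FPKM in untreated lines 682, 700 and 889, at 3.26 FPKM in the mock library, and at 1.65 and 0.734 FPKM in the induced libraries. Its changes of -1.17, -0.91 and -1.09 were alike in the 3 pairs. Skil, a repressor of SMAD complexes, differed by -0.02, -0.21 and 0.15. Of 23 pathway components tested, 2 lay above all controls in the induced libraries and 3 below, against 6.33% and 5.83% of all tested genes. Smad1 and Smad5, which carry BMP signals, were lower in the induced libraries than in all controls. Their induced pairs were lower by 0.25 and 0.38 and by 0.48 and 0.35, with mock pair changes of -0.21 and -0.01. Bmp1, a protease that matures collagen, and Fst, an activin antagonist, were higher in the induced libraries than in all controls, with changes of 0.67, 1.25 and 0.44 for Bmp1 and of 0.86, 0.36 and 0.46 for Fst.

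In the list of paracrine ligands and their receptors, Fgf15 and Edn1 had the largest changes of the genes whose arms did not overlap. Fgf15, the hormone that gut epithelium releases in response to bile acids, stood at 2.40, 9.35 and 22.0 FPKM in untreated lines 682, 700 and 889, at 4.65 FPKM in the mock library, and at 27.6 and 125 FPKM in the induced libraries. The lower induced level was close to the highest untreated level, and the changes were 1.47, 2.46 and 0.73. Edn1, the vasoconstrictor peptide endothelin, stood at 55.3, 24.2 and 22.8 FPKM untreated, at 24.7 FPKM in the mock library, and at 6.03 and 10.4 FPKM induced. Edn1 was 4.01-fold and 2.20-fold lower in the induced pairs and 2.24-fold lower in the mock pair, where the untreated library was the highest of the 6. Ptch1, the hedgehog receptor and a readout of that pathway, was lower by 0.41, 0.33 and 0.11.

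In the Notch list 3 of 18 genes lay below all controls (Notch1, Dtx4 and Neurl1b) and 1 above (Nrarp), against 5.83% and 6.33% of all tested genes, with list medians of -0.13, 0.03 and -0.01. Notch1 itself was lower by 0.35 and 0.14 in the induced pairs and higher by 0.28 in the mock pair. Dtx4 had changes of -0.85, -0.10 and -0.07. In the WNT list none of 15 genes separated the arms. Of 23 genes of the EGF family and MAPK feedback only Erbb3 did, at 45.2 to 68.4 FPKM untreated, 68.7 FPKM in the mock library and 43.0 and 30.2 FPKM induced. In 9 genes of that list the value was higher in all 3 pairs, against 17.6% of all tested genes. By pair, 13 of the 23 were higher in line 700, 15 in line 889 and 21 in the mock pair. Of 19 interferon and antigen presentation genes 2 were higher and 8 lower in both induced pairs, and 7 were lower in all 3. The shares of all tested genes were 27.2%, 29.5% and 18.4%. The 2 higher genes, B2m and H2-K1, lay above all controls in the induced libraries, against 6.33% of all tested genes, with changes of 0.33 and 0.46 for B2m, which stood at 645 and 643 FPKM in the untreated and mock libraries of line 682. The interferon gene Ifit1 was lower by 0.40, 1.79 and 0.14. Of 26 matrix, integrin and protease genes 11 were higher in both induced pairs, against 27.2% of all tested genes. All 11 were also higher in the mock pair, against 2290 of 3540 over all tested genes. The arms did not overlap for 4 of the 26, all higher, against 6.33% of all tested genes. Of these, Col18a1 had changes of 0.52, 1.11 and 1.25, and Plaur, the urokinase receptor, 0.50, 1.33 and 0.27.

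**Figure D5:**
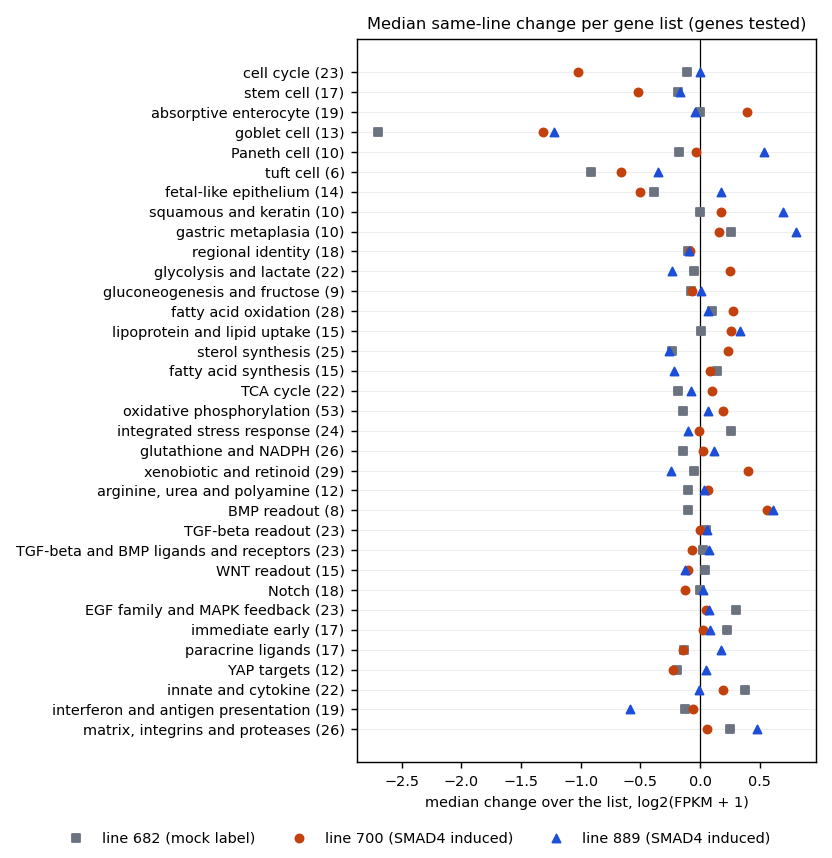
Median change of each gene list with at least 6 tested genes in the 3 same-line pairs, on the log2(FPKM + 1) scale, with the number of tested genes in brackets. Circles are line 700, triangles line 889 and squares the mock pair. Goblet and tuft cell medians lie below 0 in all 3 pairs, the BMP readout lies above 0 in the induced pairs only, and the cell cycle median is low in line 700 only.

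The line 889 pair held changes that the other pairs lacked. Pcp4, a calmodulin-binding peptide, stood at 0.736 FPKM in untreated line 889 and at 1046 FPKM in its induced library, and was at or below 0.527 FPKM in the other 4 libraries. Pck1, the enzyme that commits carbon to glucose synthesis, stood at 0.143 and 198 FPKM in line 889 and at or below 0.133 FPKM elsewhere. Pmp22, a membrane protein known from myelin, stood at 0.521 and 228 FPKM in line 889 and at no more than 1.67 FPKM elsewhere. On plastic, Pcp4, Pck1 and Pmp22 were higher with dox by 11, 5.44 and 8.28 in line 889, by 8.21, 6.85 and 6.99 in line 560, and by 4.92, 0.69 and 0.49 in line 700. Cyp2c55, a cytochrome P450, chosen after its values were seen, went opposite ways, with 2.50 and 38.4 FPKM in line 700 and 20.5 and 4.58 FPKM in line 889. Mgst1, also chosen afterwards, was higher by 2.67 in line 889 and lower by 0.26 and 0.18 in line 700 and the mock pair.

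Set against plastic, where the table was normalized apart and only changes can be compared, the difference between the dox changes of the 2 environments was called by limma for 0 of 11977 genes tested in both, with a lowest adjusted p of 0.9999, and 303 (2.53%) had an unadjusted p under 0.05. With the organoid line as a block the lowest adjusted p was 0.4635 and 649 genes had an unadjusted p under 0.05, again with 0 calls. The changes on plastic in lines 560, 700 and 889 were 4.88, 2.26 and 3.12 for Smad4, against 1.28 and 1.97 in BME. They were 2.39, 1.81 and 2.98 for Id1 and 3.57, 2.80 and 5.35 for Id3. Angptl4 had changes of 2.61, 2.43 and 3.35 on plastic and Ldhd of 3.46, 3.07 and 2.85, within or near the range of the BME pairs. Apoc2, with changes of 2.02 and 3.01 in BME, had changes of 1.19, -0.55 and 0.38 on plastic, and Krt19 was lower in all 3 plastic pairs, by 0.90, 1.36 and 0.58. Tff3 went both ways there, with -1.73, -2.53 and 5.28, and so did Muc2, with -1.26, -0.61 and 2.45.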

How the data were processed

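RNA-Seq of mouse tumor organoids was analysed from the FPKM values that the authors deposited, with separate tables for BME and plastic that the authors normalized independently. Per the submitters' processing notes, reads were quantified with kallisto against mm9, and DESeq2 was used for comparisons. Versions and the transcript annotation are not given in the sources used here. FPKM corrects for transcript length and sequencing depth. The study's methods do not say how depth was scaled, so a changed composition of the RNA may not be corrected for. The deposited comparison tables hold the authors' own fold changes and p-values and were not used. Depth was read from the steps between low FPKM values, of which 90.2% (2298 of 2547 genes) came out as whole reads within 0.03 reads.

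Groups were taken from the labels. Genes with a mean of at least 0.5 FPKM over the 6 BME libraries were tested on log2(FPKM + 1), a scale that understates the change of low genes, with limma 3.58.1 in R 4.3.3 (lmFit, eBayes with trend, two-sided, Benjamini-Hochberg). The 2 dox libraries were compared with the 4 control libraries with no block for the line, since none is given in the methods of the study. Calls needed an adjusted p under 0.05 together with a change of more than 1 in either direction. The environments were compared by the interaction of dox with environment. limma was run on simulated data as a check of the code, with a spread set below that of these data. That run does not show how many changed genes limma would find here. p-values measure only the spread between these libraries, which may be technical.

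The line numbers pair the libraries, since they name the same organoid line. The difference between lines 700 and 889 over genes correlated at 0.744 between the induced and the untreated libraries. For line 682, the deviations of its mock and untreated libraries from the control mean correlated at 0.176. That is a different measure, since both libraries are part of this mean. Blocked values stand beside the results they change.

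The members of the comparison and the 39 gene lists (825 symbols, of which 821 were found, 8 by an older symbol) were chosen with earlier results of these data known. Genes were named by a rule: Smad4, Id1 and Id3; called genes; the 10 highest and 10 lowest by the smaller induced pair change among genes whose arms did not overlap and whose mean was at least 1 FPKM; the first gene of each list and up to 4 of each list by the same measure; and the 5 genes with the largest difference between the induced pairs and the 5 with the largest mock pair change. Of 164 named genes, the text gives those the results turn on, and says where a gene was chosen after its values were seen. A few named genes are not reported here. Positions are from GENCODE M1 (NCBIM37), and promoter sequences are from RefSeq (GRCm38.p6). Alternatives were another pseudocount, other filters, other scalings, the block, the mock library as its own group, eBayes without trend and each library left out.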

Additional observations from a re-analysis of the deposited data

Results flagged for a closer look

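Among 37 genes with a fitted change, the 4 control libraries were searched for one that stood apart, with a gap to its nearest neighbour, as a share of the range of the 4, above Dixon's critical value, which chance gives in about 1 of 20 such groups. There were 4. The mock library of line 682 stood high for Angptl4, with a gap of 0.854 of the range, and for Mir378a, with a gap of 1 because the other 3 were at 0. Untreated line 889 stood high for Mir1956, with a gap of 0.931, and untreated line 682 stood high for Edn1, with a gap of 0.912. Of 164 named genes, 4 went one way in both induced BME pairs and the opposite way in all 3 plastic pairs. The fitted plastic change minus the BME change was 2.07 for Cd44 and 1.22 for Ifit1, which were lower in BME and higher on plastic. It was 0.92 for Skil, whose BME changes were small (-0.02 and -0.21), and -1.98 for Krt19, which was higher in BME and lower on plastic. None of these 4 differences passed the limma interaction test (adjusted p = 0.9999 for each).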

How the results depend on the processing

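The number of genes called in BME, 3, was 1 with a pseudocount of 0.1, 0 at a mean FPKM of at least 2, 0 with the organoid line as a block, 0 with the mock library as a group of its own, and 0 to 37 with each library left out. It was 4 with no filter, and 3 with median ratio scaling, quantile normalization or eBayes without trend. Genes whose arms did not overlap numbered 1773 to 6506 with each library left out, which leaves fewer libraries to separate (2674 and 3213 without untreated lines 700 and 889, 5435 and 6506 without induced lines 700 and 889). The 112 genes over 1 in both induced pairs became 194 with a pseudocount of 0.1 and, chosen after seeing the data, 425 with a change over 0.5. With each library left out, the fitted change of Muc2, -0.85, ran from -2.02 (without induced line 889) to 0.32; it was 0.05 without untreated line 889 and 0.32 without induced line 700, and that of Tff3, -1.24, ran from -2.79 (without induced line 889) to 0.31 without induced line 700; the cause was not tested. The change of Smad4 was 1.05 to 1.68 with each library left out. The other 35 of 37 fitted genes kept their direction. The 3 pair changes of 127 other named genes were recomputed with a pseudocount of 0.1, median ratio scaling and quantile normalization. Of the 1143 values, 41 moved by at least the SE of the fitted change, 34 of them with the pseudocount. The difference between plastic and BME had 0 calls in each setting run, with 303 genes at an unadjusted p under 0.05, 649 with the line as a block, 398 with lines 700 and 889 only and 190 without the mock library. Genes near 1 FPKM rest on few reads.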

Other observations

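Lists that the text has not yet described held single genes on each side. In the fetal-like list 6 of 14 genes were lower and 4 higher in both induced pairs, against 29.5% and 27.2% of all tested genes. Ly6a, the surface protein that marks regenerating gut epithelium, was lower by 0.93, 0.83 and 0.67 in the line 700, line 889 and mock pairs. Tnfrsf12a, the receptor for TWEAK, was higher by 0.53, 1.06 and 0.31. In the gastric metaplasia list 5 of 10 genes were higher and 1 lower in both induced pairs. All 5 were also higher in the mock pair, against 2290 of 3540 over all tested genes. Gkn1, a gastric surface cell product, had changes of 0.76, 1.42 and 0.58.

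A few single genes, chosen after their values were seen, were higher in all 3 pairs. Il1a, an alarm cytokine, had changes of 1.61, 2.78 and 2.55. Fn1, the matrix protein fibronectin, had changes of 1.93, 1.10 and 1.54. Oprd1, an opioid receptor, had changes of 4.86, 2.42 and 4.13, and stood at 18.6 FPKM in the mock library against 0.115 FPKM in its untreated partner.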
